A study of Mus musculus with 18 samples.

Results

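The core of the spliceosome was followed here through 54 genes, taken from the 9866 genes with a listed level in either expression dataset. Members were all genes whose symbol begins with Sf3a, Sf3b, Snrp, Snrnp, U2af, Prpf or Lsm and then a letter or digit, apart from the kinase gene *Prpf4b*. The knockdown dataset held 52 of them among 9435 genes, the overexpression dataset held 53 among 9472 genes, and 51 were in both. *Snrpn* was listed only in the knockdown dataset, and *Lsm11* and *Snrnp35* only in the overexpression dataset. The symbol rule also takes in 6 LSm genes outside the U6 ring, among them *Lsm11*, *Lsm14a* and *Lsm14b*, counted as members throughout. The splicing table held 1896 events in these genes, out of 661941 in all, and 53 of the genes had at least 1 event with enough reads.

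All 18 libraries came from primary mouse embryonic fibroblasts (MEFs) of the reprogrammable Collagen-OKSM, M2rtta+ line, in which doxycycline switches on the 4 factors Oct4, Klf4, Sox2 and Myc. There were 9 groups of 2 libraries. In the knockdown dataset, day 0 non-infected MEFs (NI) stood beside day 12 cells that carried a lentiviral control hairpin (shSCR), either of 2 hairpins against *Cpsf3* (shCPSF3#1 and shCPSF3#2) or either of 2 against *Hnrnpul1* (shUL1#1 and shUL1#2). The overexpression dataset had its own NI libraries at day 0, and day 12 cells with an empty retroviral vector (Empty) or with T7-tagged TIA1 (T7-TIA1). The infected cells were sorted for GFP early in reprogramming and grown on irradiated feeder cells, so a day 12 library can hold RNA of feeders and of cells that did not reprogram. Day 12 and NI therefore differ in time, doxycycline, infection, sorting and feeders, which cannot be told apart. For shUL1#2 and the overexpression NI libraries, the day field of the labels goes against the sample titles, and the titles were followed. Nothing in the labels says that the replicates were separate cultures, so all p-values measure only the spread between these libraries.

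The spliceosome removes introns from pre-messenger RNA. It is built from small nuclear ribonucleoproteins (snRNPs), each a short RNA wrapped by a ring of Sm or LSm proteins and joined by proteins of its own. U1 marks the 5′ splice site, U2AF and the SF3A and SF3B complexes of U2 mark the 3′ splice site and the branch point, and the U4/U6.U5 tri-snRNP then enters, after which helicases such as *Snrnp200* help to rebuild the particle into its active form. These proteins are found in all cells, and their genes are commonly more active in dividing cells. *Cpsf3* encodes the endonuclease that cleaves pre-messenger RNA before polyadenylation, *Hnrnpul1* a nuclear RNA-binding protein, and *Tia1* a protein that binds U-rich RNA next to 5′ splice sites.

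Expression is given in scaled CPM, the reads of a gene relative to the size of its library, which is the unit of the deposited tables. A gene was called where limma, run over all genes of a dataset on log2(scaled CPM + 1), gave a Benjamini-Hochberg adjusted p below 0.05, and log2 differences are on that scale with their standard error. The targets differed as labelled: *Cpsf3* fell by 1.00 ± 0.24 in the shCPSF3 libraries (adjusted p = 0.0207, limma), though at 77.1 scaled CPM in shCPSF3#2 replicate 2 it was near the 86.7 of shSCR replicate 1, and *Hnrnpul1* by 1.52 ± 0.23 in the shUL1 libraries (adjusted p = 0.0101, limma), while *Tia1* stood at 613 and 469 scaled CPM in T7-TIA1 against 85.6 and 77.0 in Empty, which limma did not call (adjusted p = 0.22). *Tia1* was also called higher against shSCR in the shCPSF3 (0.36, adjusted p = 0.0335, limma) and shUL1 libraries (0.54, adjusted p = 0.0166, limma). Library sums over all listed genes ran from 937556 to 1104164 in the knockdown dataset and from 950964 to 1097707 in the overexpression dataset. The 12 fibroblast markers were all listed in the knockdown dataset and 11 in the overexpression dataset, but only 3 and 1 of 11 epithelial markers, and 1 and 0 of 14 pluripotency markers. The levels of genes from the 2 datasets were scaled separately and are compared only within a dataset.

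The replicates of the knockdown dataset differed in a uniform way at day 12. Replicate 2 was higher than replicate 1 for 48 of 52 members in shSCR, 39 in shCPSF3#1, 50 in shCPSF3#2, 50 in shUL1#1 and 49 in shUL1#2, against 27 in NI. The summed level of the 52 members was 4882 scaled CPM in shSCR replicate 1 and 6136 in replicate 2, against 6171 and 6206 in the NI libraries. A list of 16 proliferation genes moved alongside, with sums of 1775 and 3479 in shSCR, 559 and 1110 in shCPSF3#1, and 3729 and 4217 in NI. In the overexpression dataset the NI libraries stood apart from each other, replicate 2 being higher for only 5 of 53 members (summed level 6300 in replicate 1 and 5220 in replicate 2), with proliferation sums of 3678 and 2286 and fibroblast marker sums of 12669 and 38217. What these libraries contribute to the differences below was not tested beyond the fits without each library.

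**Figure D1:**
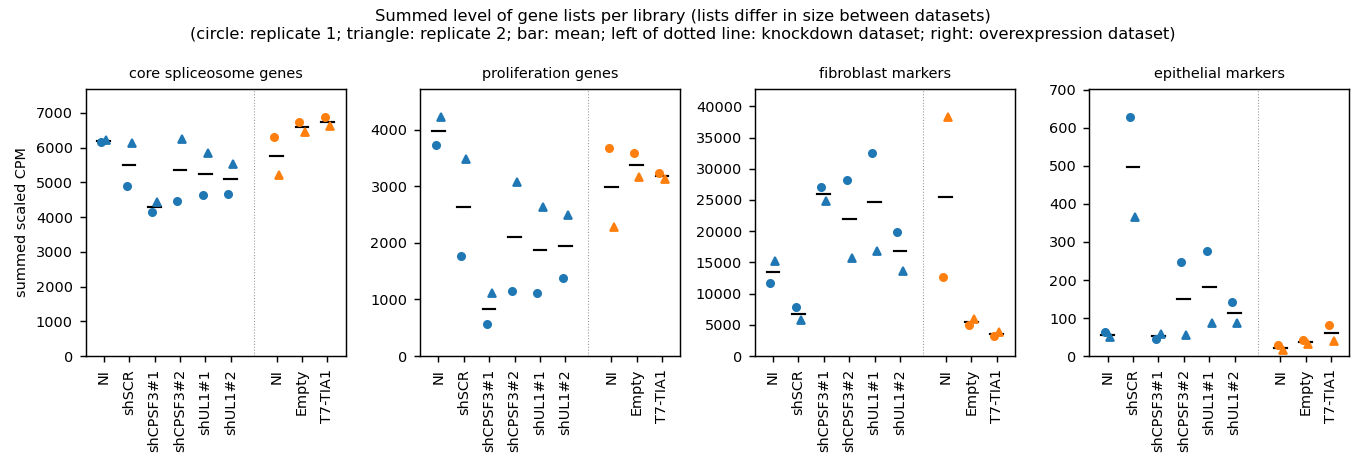
Summed scaled CPM per library (vertical axis) of the core spliceosome genes and of the proliferation, fibroblast and epithelial lists, by group; circles are replicate 1, triangles replicate 2 and bars the mean. The members' sums in shSCR spanned 4882 to 6136 against 6171 and 6206 in NI, and the sums of shCPSF3#1 (4144 and 4424) were the lowest of the knockdown dataset.

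The first comparison asked how the core spliceosome differed between MEFs and cells after 12 days of reprogramming with the control hairpin. Of the 52 members, 6 were higher and 6 lower in shSCR than in NI, or 11.5% in each direction, where 22.5% of all genes were called higher and 22% lower. The U1-associated *Prpf40b* and *Prpf39*, the second-step factor *Prpf18*, the minor spliceosome gene *Snrnp48* and the tri-snRNP gene *Prpf6* rose, as did *Snrpn*. The Sm core gene *Snrpb*, the SF3B gene *Sf3b4*, the tri-snRNP gene *Prpf31* and the LSm genes *Lsm1*, *Lsm6* and *Lsm8* fell. The median log2 difference of the members was -0.25, against 0.0005 over all genes, with 36 members negative and 16 positive, but it was -0.50 between the replicate 1 libraries and -0.05 between the replicate 2 libraries. Other lists moved in the same libraries: of 3 epithelial markers 2 were called higher (sums of 62 and 50 scaled CPM in NI, 627 and 365 in shSCR), of 12 fibroblast markers 1 higher and 3 lower, and of 16 proliferation genes 0 higher and 2 lower, and their part in the members' levels was not tested.

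*Prpf40b* (ENSMUSG00000023007, chr15:99295087-99317018, plus strand, GRCm38), which encodes a U1 snRNP-associated protein with WW and FF domains, had the lowest adjusted p. It stood at 24.6 and 25.3 scaled CPM in NI and at 68.1 and 63.8 in shSCR. Both shSCR libraries were far above both NI libraries, with a log2 difference of 1.37 ± 0.16 (adjusted p = 0.000367, limma). The overexpression dataset gave the same direction in other libraries, with 19.8 and 33.5 in NI and 59.2 and 50.6 in Empty (1.06 ± 0.25, adjusted p = 0.0188, limma). *Prpf39* (chr12:65036333-65063386, plus strand), another U1-associated protein, was at 68.0 and 58.6 in NI and at 105 and 96.1 in shSCR, a rise of 0.66 ± 0.14 (adjusted p = 0.00677, limma). In the overexpression dataset its levels were 76.7 and 66.9 in NI and 97.9 and 86.3 in Empty, which did not overlap but missed the threshold (0.36, adjusted p = 0.0609, limma).

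*Snrnp48* (chr13:38204938-38227665, plus strand) encodes a protein of the U11/U12 snRNP, which recognises the rare minor introns. Its levels were 35.05 and 31.5 in NI and 48.8 and 48.0 in shSCR, a rise of 0.53 ± 0.14 (adjusted p = 0.0181, limma). In the overexpression dataset they were 35.2 and 28.2 in NI, 45.7 and 38.0 in Empty and 43.0 and 43.2 in T7-TIA1, and Empty against NI missed the threshold (0.40, adjusted p = 0.0837, limma). *Prpf18*, needed for the second catalytic step, rose from 39.5 and 42.1 to 57.6 and 58.6 (0.50 ± 0.10, adjusted p = 0.00572, limma). In the knockdown dataset the replicates of all 4 of these genes lay close together and apart from the other group. *Prpf6*, which bridges the tri-snRNP, stood at 89.4 and 93.7 in NI and at 109 and 124 in shSCR (0.34 ± 0.12, adjusted p = 0.0465, limma). *Snrpn*, a relative of *Snrpb* that is imprinted and shares its transcript with *Snurf*, was low in NI (5.22 and 5.41) and spread widely in shSCR (17.3 and 33.5), with a difference of 1.99 ± 0.67 (adjusted p = 0.0416, limma). Reads of *Snrpn* and of these related genes may not be fully separable.

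Of the members that fell, *Sf3b4*, a branch-point contact of SF3B, was at 118 and 104 in NI and at 44.7 and 61.3 in shSCR (-1.07 ± 0.31, adjusted p = 0.0223, limma). *Prpf31* (chr7:3629985-3642486, plus strand), which holds U4/U6 and U5 together, was at 89.2 and 91.5 and then at 40.2 and 55.0 (-0.93 ± 0.21, adjusted p = 0.00825, limma). *Snrpb*, which encodes a protein of the Sm ring, was at 225 and 215 and then at 99.9 and 138 (-0.90 ± 0.29, adjusted p = 0.0337, limma). In each of them replicate 1 of shSCR was lower than replicate 2, yet both were below both NI libraries. The U6 ring gene *Lsm6* fell from 57.2 and 63.1 to 26.8 and 39.3 (-0.87 ± 0.26, adjusted p = 0.0288, limma) and *Lsm8* from 68.4 and 65.9 to 35.2 and 48.2 (-0.69 ± 0.20, adjusted p = 0.0234, limma). *Lsm1*, which takes the place of *Lsm8* in the cytoplasmic ring that takes part in messenger RNA decay, was at 29.4 and 26.6 and then at 20.7 and 22.3 (-0.36 ± 0.11, adjusted p = 0.0256, limma).

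Neither U2AF gene passed the test. *U2af2* (chr7:5062143-5079938, plus strand), the subunit that binds the polypyrimidine tract, stood at 322 and 325 in NI and 169 and 231 in shSCR (-0.71 ± 0.27, adjusted p = 0.0631, limma). *U2af1*, its partner at the AG dinucleotide, stood at 151 and 139 in NI and 98.9 and 150 in shSCR, which overlapped. *Sf3b1*, the largest SF3B protein, stood at 450 and 455 in NI and at 523 and 588 in shSCR (0.29 ± 0.12, adjusted p = 0.0849, limma). With the replicate number as a block, 7 members were higher and 15 lower, where 29.9% of all genes were called higher and 29.6% lower. The calls then included *U2af2* (adjusted p = 0.0035, limma with the block) and *Sf3b1* (adjusted p = 0.0416, limma with the block). NI did not share the replicate difference of the day 12 libraries, so in this comparison the block leaves part of the spread out of its p-values. Across the 52 members, 9 were higher and 24 lower in shSCR without overlap between the groups, where 38.7% of all genes were higher and 38.4% lower in that sense.

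The counts shifted when single libraries were left out. Such a fit leaves 1 library in that group, so the spread comes from the other groups only. Without shSCR replicate 1 the members gave 4 higher and 0 lower (18.6% and 17.3% of all genes), without NI replicate 1 they gave 3 and 1 (14.5% and 13.2%), without NI replicate 2 they gave 2 and 1 (15.4% and 13.7%), and without shSCR replicate 2 they gave 3 and 8 (17.3% and 17%). When all libraries were rescaled to equal sums, which moved the median of all genes by 0.13, 7 members were higher and 1 lower, where 25.9% of all genes were called higher and 16.3% lower.

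**Figure D2:**
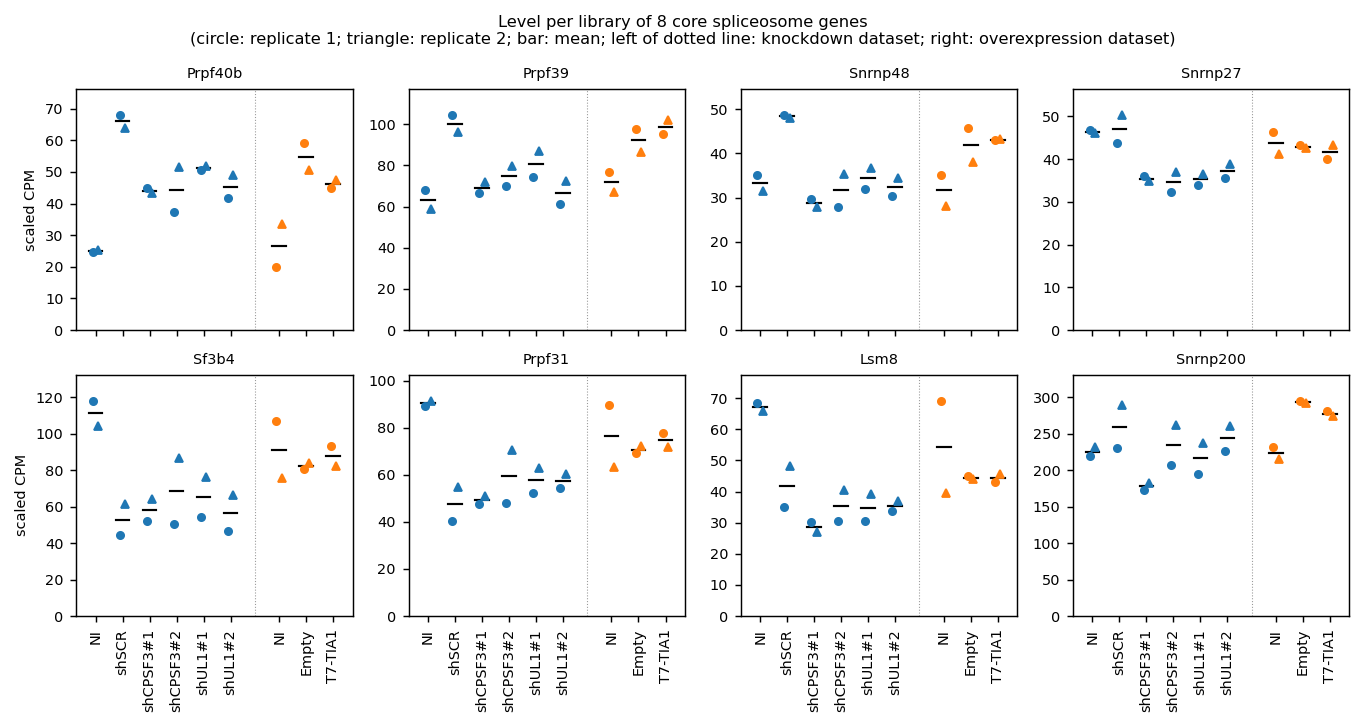
Scaled CPM of 8 members in every library (vertical axes from 0, one scale per gene) by group; circles are replicate 1, triangles replicate 2 and bars the mean, with the knockdown dataset left and the overexpression dataset right of the dotted line. *Prpf40b* rose from 24.6 and 25.3 in NI to 68.1 and 63.8 in shSCR and lay between 37.2 and 51.7 in the 8 knockdown libraries.

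The Empty vector gave the same comparison of day 12 with day 0 in separate libraries. Of 53 members, 7 were higher and 1 lower, which is 13.2% and 1.89%, where 22.8% of all genes were called higher and 23.6% lower. The members' median log2 difference was 0.19 against 0.013 over all genes, with 40 positive and 13 negative, and it was 0.07 between the replicate 1 libraries and 0.32 between the replicate 2 libraries. In the same comparison 7 of 11 fibroblast markers were called lower and 0 higher, and 5 of 16 proliferation genes higher and 2 lower, and their part in the members' levels was not tested. Without overlap, 25 members were higher and 3 lower in Empty, where the shares over all genes were 37.6% and 36.8%. The members called were *Prpf40b*, the minor spliceosome genes *Snrnp25* and *Snrnp35*, the tri-snRNP genes *Prpf6* and *Snrnp200*, the U6 ring gene *Lsm4* and the U1 gene *Snrpa* on the higher side, and *Lsm11* on the lower side.

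*Snrnp25*, a U11/U12 protein gene, stood at 11.3 and 12.5 in NI and at 20.9 and 20.7 in Empty (0.76 ± 0.11, adjusted p = 0.00471, limma). *Lsm4* rose from 39.3 and 34.8 to 55.0 and 54.3 (0.55 ± 0.11, adjusted p = 0.0106, limma). *Snrnp200* (chr2:127208386-127240451, plus strand), the helicase that unwinds U4 from U6, rose from 231 and 216 to 296 and 293 (0.40 ± 0.10, adjusted p = 0.022, limma). The Empty replicates of these genes were nearly equal and above both NI libraries. *Prpf6* rose from 99.6 and 96.9 to 129 and 125 (0.37 ± 0.09, adjusted p = 0.0246, limma). *Lsm11*, a part of the U7 snRNP that processes histone messenger RNA and not of the spliceosome, fell from 27.0 and 15.3 to 9.59 and 9.33 (-1.03 ± 0.29, adjusted p = 0.0323, limma).

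With the replicate number as a block, 6 members were higher and 1 lower, where 22.8% of all genes were called higher and 23.6% lower. *Snrnp35* (8.11 and 7.42 in NI, 10.4 and 10.8 in Empty) and *Snrpa* (76.4 and 72.7 in NI, 93.1 and 90.6 in Empty) then missed the threshold, while *Snrnp70* (359 and 282 in NI, 518 and 407 in Empty) passed it (0.53 ± 0.12, adjusted p = 0.0205, limma with the block). The count ran to 32 higher and 1 lower without NI replicate 1 (31.8% and 31.3% of all genes) and to 7 and 10 without NI replicate 2 (31.6% and 31.2%). It ran to 0 without Empty replicate 1 (7.47% and 8.08% of all genes), to 1 higher without Empty replicate 2 (11.2% and 12.3%), and to 3 higher without either T7-TIA1 library (15.8% and 16.6%) or with only the Empty and NI libraries in the fit. With libraries rescaled to equal sums, which moved the median of all genes by 0.19, 25 members were higher and 0 lower, where 33.2% of all genes were called higher and 16.4% lower.

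Set side by side, 8 of the 51 members in both datasets were higher at day 12 in both without overlap, 2 were lower in both, and 3 were lower in shSCR but higher in Empty. Of the 9041 genes in both tables, 26.7%, 29.2% and 1.58% showed these patterns. Those 3 were *Sf3b3* (-0.25 in shSCR and 0.34 in Empty), *Sf3b5* (-0.30 and 0.33) and *Sf3b6* (-0.36 and 0.14). The pattern was not one of all SF3B genes, since *Sf3b1* was positive in both (0.29 and 0.32), *Sf3b4* negative in both (-1.07 and -0.13) and *Sf3b2* near 0 in shSCR (0.03 and 0.17). Opposite signs were not particular to SF3B genes, as 26 of the 51 members were negative in shSCR and positive in Empty. None of the 6 differences of *Sf3b3*, *Sf3b5* and *Sf3b6* passed the test, but *Sf3b6* in shSCR did with the block (adjusted p = 0.0287, limma with the block). *Prpf40b* and *Prpf6* were called higher in both datasets.

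**Figure D3:**
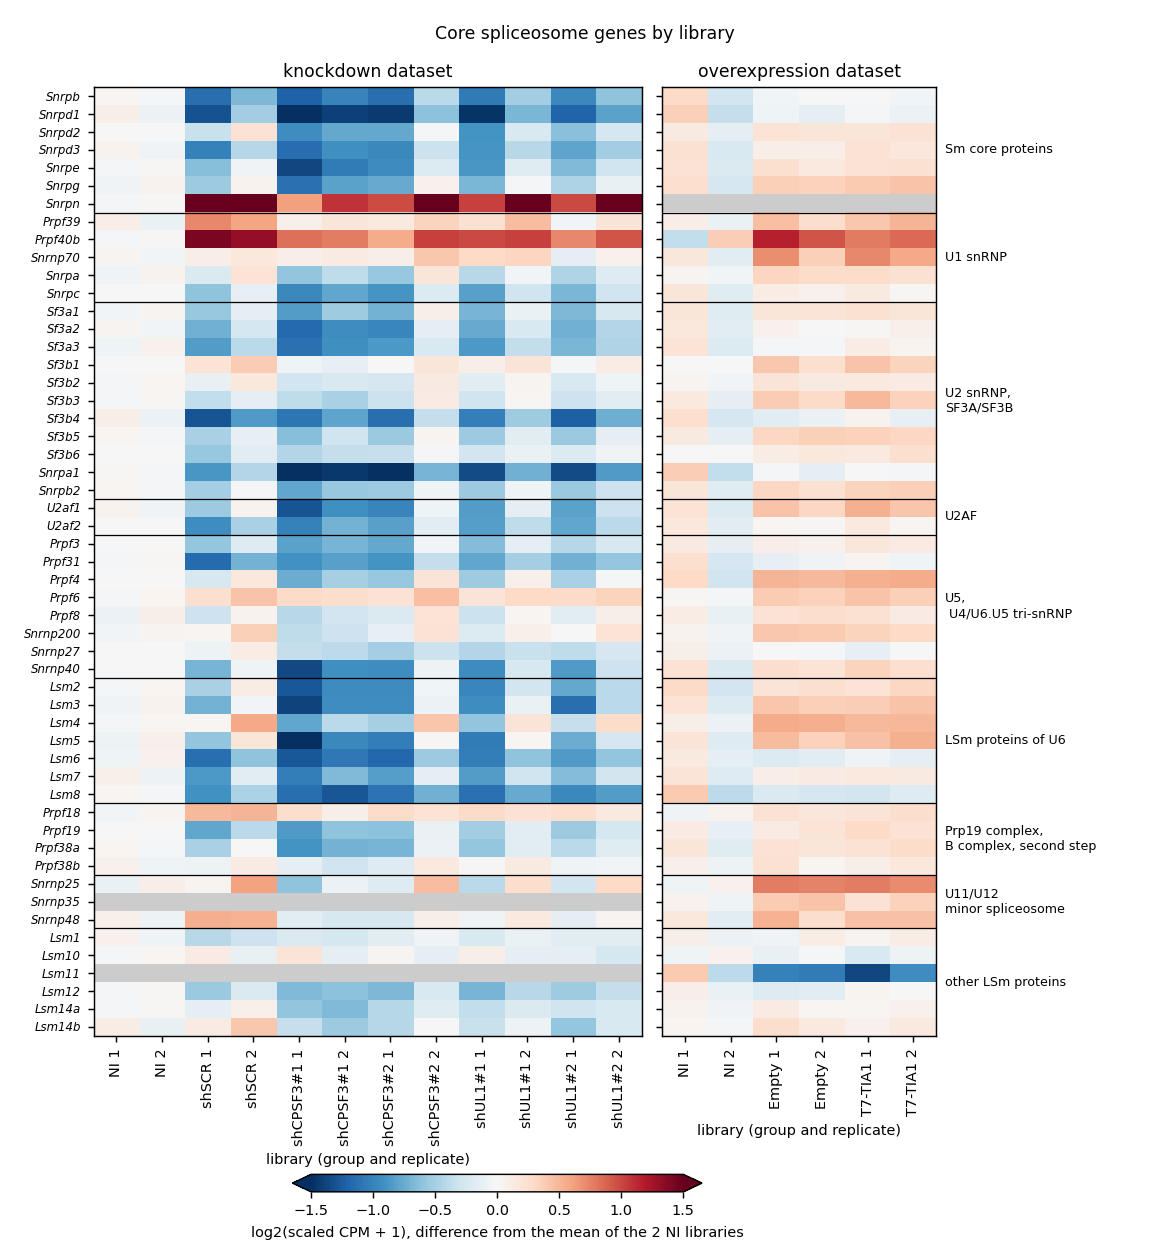
Levels of the members in each library (columns) as the log2 difference from the gene's mean over the NI libraries of its dataset, with members in rows grouped by role. *Prpf40b*, *Prpf39*, *Prpf18* and *Snrnp48* were above NI in both shSCR and both Empty libraries, and the replicate 1 libraries of the knockdown dataset at day 12 were lower than replicate 2 for most members.

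The second comparison asked which members changed when *Cpsf3* was knocked down during reprogramming. Against shSCR, 0 members were higher and 7 were lower in the 4 shCPSF3 libraries, or 13.5% lower, where 16.7% of all genes were called higher and 9.35% lower. The 7 were the U1-associated *Prpf40b* and *Prpf39*, the minor spliceosome gene *Snrnp48*, the second-step gene *Prpf18*, the tri-snRNP gene *Snrnp27*, and *Lsm14a* and *Lsm14b*, whose proteins act on messenger RNA in the cytoplasm. The members' median was -0.30 against 0.028 over all genes, and 45 of 52 were negative. Within replicate 1 the median was -0.23 and within replicate 2 -0.31.

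*Snrnp48* stood at 48.8 and 48.0 scaled CPM in shSCR, at 29.7 and 27.9 in shCPSF3#1 and at 27.9 and 35.4 in shCPSF3#2. Every shCPSF3 library was below both shSCR libraries, with a difference of -0.67 ± 0.12 (adjusted p = 0.00865, limma). *Prpf40b* fell from 68.1 and 63.8 to 44.9 and 43.3 in shCPSF3#1 and 37.2 and 51.6 in shCPSF3#2 (-0.57 ± 0.14, adjusted p = 0.0193, limma). *Prpf39* fell from 105 and 96.1 to 66.7 and 71.9, and 70.0 and 79.6 (-0.47 ± 0.12, adjusted p = 0.0266, limma). These 3 genes had risen between NI and shSCR, and both comparisons use the same shSCR libraries, so the opposite signs are not separate observations.

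*Snrnp27* (chr6:86675151-86684522, minus strand), a tri-snRNP protein gene, showed close values in NI (46.8 and 46.1) and shSCR (43.9 and 50.4). It stood at 36.0 and 34.996 in shCPSF3#1 and 32.3 and 37.1 in shCPSF3#2, below all of the former (-0.41 ± 0.10, adjusted p = 0.0223, limma). *Lsm14a* fell from 156 and 181 in shSCR to 114 and 108, and 128 and 151 (-0.43 ± 0.11, adjusted p = 0.0238, limma). *Lsm14b* (chr2:180024987-180035465, plus strand) fell from 76.4 and 92.5 to 55.0 and 47.6, and 51.7 and 70.4 (-0.59 ± 0.18, adjusted p = 0.0421, limma). *Prpf18* fell from 57.6 and 58.6 to 49.2 and 43.4, and 49.4 and 47.0 (-0.29 ± 0.09, adjusted p = 0.0464, limma). It too had been called higher in shSCR than in NI, with the same shSCR libraries, so its opposite signs are not separate observations either.

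With the replicate number as a block, 20 members were lower and 0 higher, where 22.6% of all genes were called lower. The 13 members added were spread over the roles and included the Sm core genes *Snrpe*, *Snrpd2* and *Snrpg*, the U2 genes *Snrpa1* and *Sf3b1*, *U2af1*, the U6 ring genes *Lsm2*, *Lsm3*, *Lsm4* and *Lsm5*, and the U5 genes *Snrnp200* and *Snrnp40*, with *Snrnp25*. *Snrpa1*, a U2 protein gene, stood at 36.7 and 49.9 in shSCR, at 22.9 and 24.4 in shCPSF3#1 and at 22.9 and 41.6 in shCPSF3#2 (-0.64; adjusted p = 0.113 in limma and 0.0173 with the block). *Lsm5* had the most negative difference of all members (-0.68; adjusted p = 0.232 in limma and 0.0182 with the block).

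*Snrpb*, *Prpf31* and *Sf3b4*, which fell between NI and shSCR, were not called here. *Sf3b4* was at 52.0 and 64.0 in shCPSF3#1 and 50.3 and 86.6 in shCPSF3#2 against 44.7 and 61.3 in shSCR (adjusted p = 0.518, limma). Other lists moved in the same libraries: 7 of 12 fibroblast markers were called higher and 3 of 3 epithelial markers lower against shSCR, and all 16 proliferation genes were negative with 0 called. The part of these differences in the members' lower levels was not tested, and fewer cells of a type and less RNA per cell cannot be told apart in bulk libraries. The 7 calls became 0 without shSCR replicate 2 (1.47% of all genes lower), 3 without shSCR replicate 1 (6.25%), 3 without shCPSF3#1 replicate 2 (6.48%) and 2 without shCPSF3#2 replicate 1 (5.1%). With only the shCPSF3 and shSCR libraries in the fit, 0 members were called without the block (0.7% of all genes lower) and 17 lower with it (20.3%).

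For *Hnrnpul1* knockdown, 0 members were higher and 1 was lower than in shSCR (1.92%), where 7.31% of all genes were called higher and 3.15% lower. The member called was *Snrnp48*, at 31.9 and 36.8 in shUL1#1 and 30.3 and 34.4 in shUL1#2 against 48.8 and 48.0 in shSCR (-0.53 ± 0.12, adjusted p = 0.0356, limma). All 4 libraries were below both controls. The members' median was -0.12 against 0.004 over all genes, with 38 of 52 negative. Several genes lay just past the threshold, among them *Prpf39* (74.3 and 87.2, and 61.2 and 72.3, against 105 and 96.1; -0.45, adjusted p = 0.055, limma), *Snrnp27* (-0.37, adjusted p = 0.056, limma) and *Prpf40b* (-0.45, adjusted p = 0.0732, limma). The largest differences in size were those of *Lsm14b*, at 55.0 and 66.1 in shUL1#1 and 46.5 and 59.5 in shUL1#2 (-0.57, adjusted p = 0.0756, limma), and on the positive side *Prpf31*, at 52.3 and 63.0 and at 54.2 and 60.2 against 40.2 and 55.0 in shSCR (0.28). With the replicate number as a block, 7 members were lower (*Snrnp48*, *Snrnp27*, *Prpf39*, *Lsm14b*, *Prpf40b*, *Prpf18* and *Snrnp25*), where 12.8% of all genes were called lower. In the fit without the block, the single call was lost without any 1 of the NI, shSCR and shUL1#2 libraries or shUL1#1 replicate 1, and became 2 without either shCPSF3#2 library. With only the shUL1 and shSCR libraries in the fit, 0 members were called without the block (1.31% of all genes higher and 0.223% lower), and with it 2 were higher and 15 lower (25% and 23.4%). Equal sums gave 0 calls (6.21% and 2.65% of all genes). The members' median turned to 0.09 without shSCR replicate 2. Of the fibroblast markers, 6 of 12 were called higher against shSCR, all 16 proliferation genes were negative, and the 3 epithelial markers were lower without overlap with 0 called and 2 at an unadjusted p below 0.05 in limma.

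Compared directly, the shCPSF3 and shUL1 libraries showed 0 members called, 0 at an unadjusted p below 0.05 in limma, and 0.0424% of all genes called in either direction. The median difference was -0.13 (shCPSF3 minus shUL1) with 48 of 52 members negative, and it was 0.0026 without shCPSF3#2 replicate 1. *Snrnp48* ran from 27.9 to 35.4 in the shCPSF3 libraries and from 30.3 to 36.8 in the shUL1 libraries, which overlapped.

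T7-TIA1 gave 0 calls among the 53 members against Empty, and 0 at an unadjusted p below 0.05 in limma. Over all genes limma called 0%. The median difference was 0.04, with 37 positive, and no member differed by more than 0.24 on the log2 scale. That value was the one of *Prpf40b*, at 59.2 and 50.6 in Empty and 44.9 and 47.4 in T7-TIA1 (-0.24). The most positive was *Lsm12*, at 58.1 and 59.6 in Empty and 68.8 and 66.8 in T7-TIA1 (0.20 ± 0.11).

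**Figure D4:**
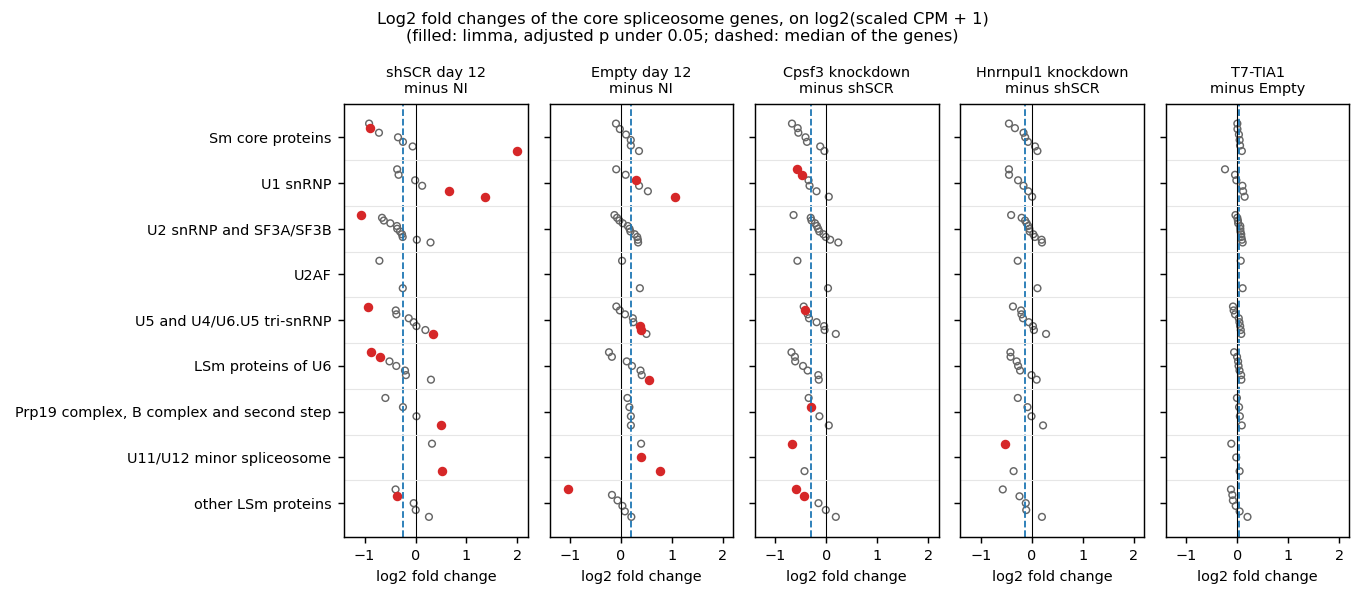
Log2 difference of each member, on the log2(scaled CPM + 1) scale, in each comparison with a control or day 0 (one panel each), by role; filled points passed an adjusted p of 0.05 in limma, open points did not, and the dashed line is the median of the members. The median was -0.25 for shSCR against NI, -0.30 for Cpsf3 knockdown against shSCR and 0.19 for Empty against NI.

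The other genes of the pathway were read as 2 lists, 65 entries under 64 gene symbols of the spliceosome outside the members and 16 genes of snRNP assembly and transport. In shSCR against NI, 11 of the former rose and 8 fell, and of the latter 2 rose and 5 fell, beside the 22.5% and 22% of all genes. In Empty against NI the counts were 20 and 3, and 5 and 2, beside 22.8% and 23.6%. The calls of both lists together shifted widely when 1 library was left out. *Coil*, the scaffold protein of Cajal bodies, rose by 1.77 in shSCR and by 1.71 in Empty. *Ncbp2*, the subunit of the nuclear cap-binding complex that contacts the cap, stood at 115 and 125 in NI and 46.9 and 59.7 in shSCR (-1.16). *Magohb*, of the exon junction complex, was called lower in both datasets (-1.65 and -0.84).

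In *Cpsf3* knockdown 2 of the other spliceosome genes were higher and 3 lower, and 1 assembly gene rose (*Ncbp2*, 0.72) and 1 fell (*Gemin2*, a partner of SMN in loading Sm rings, -1.09). Over all genes, 16.7% were called higher and 9.35% lower. In *Hnrnpul1* knockdown 0 and 0 of the other spliceosome genes were called, and of the assembly genes *Ncbp2* rose (0.67), beside 7.31% of all genes higher and 3.15% lower. T7-TIA1 and the direct comparison of the knockdowns gave 0 calls in both lists.

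Splicing of the members' own transcripts was read from the percent spliced in (PSI), the share of transcripts that hold an exon, keep an intron or use the longer form at a splice site. An event was called by the differential splicing rule where mean PSI differed by at least 10 and the libraries of the groups were at least 5 apart. A second call came from the reads behind each PSI, through a moderated fit of the log2 ratio of included to skipped reads. Few members' events passed. The coding exons of *Lsm14b* and *U2af2* described next, which the read test called in more than 1 comparison or the rule in both datasets, are shown here with the alternative part in capitals and 15 bases of the neighbouring exons in lower case, in mm10 and in the direction of the transcript.
*Lsm14b* 117-base exon, chr2:180028958-180029074, plus strand: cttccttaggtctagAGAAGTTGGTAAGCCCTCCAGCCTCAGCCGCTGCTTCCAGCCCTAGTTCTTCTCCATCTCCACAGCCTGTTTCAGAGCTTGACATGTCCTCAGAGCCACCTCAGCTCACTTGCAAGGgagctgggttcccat
*Lsm14b* 78-base exon, chr2:180031794-180031871, plus strand: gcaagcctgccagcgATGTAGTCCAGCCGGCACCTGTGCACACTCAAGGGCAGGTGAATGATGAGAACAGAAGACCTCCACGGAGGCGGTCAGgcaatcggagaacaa
*U2af2* 45-base exon, chr7:5067210-5067254, plus strand: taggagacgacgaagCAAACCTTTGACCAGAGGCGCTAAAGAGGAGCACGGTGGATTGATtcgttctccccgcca
All 3 exons are coding and have lengths divisible by 3, so that skipping them keeps the reading frame.

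In shSCR against NI, 1720 member events were covered. The rule called 11, in 8 genes, where 1.22% of all covered events passed, and the read test called 8, in 6 genes, where 0.432% passed. These read-test counts depended on how the variance was modelled. The version used, with the variance trend on the reads of the rarer form and a lower bound on the variance, gave the 8 calls among 1713 member events tested (1617 among all 374159). A trend on the read total with the bound gave 0 (5 among all events). The former trend without the bound gave 112 (43507), and the trend on the read total without the bound 48 (17453). The last of these was run first and was replaced because it made too many false calls on simulated data, and the choice was made after the calls had been seen, so the PSI values carry more weight here than the adjusted p. The median absolute difference over all covered member events was 0.07.

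The 78-base exon of *Lsm14b* was included at a PSI of 93.4 and 91.0 in NI and of 72.2 and 63.2 in shSCR, from 618 to 1183 reads per library. Both shSCR libraries fell below both NI libraries (∆PSI = -24.5, adjusted p = 0.0485, read test with limma). The overexpression dataset gave 92.8 and 93.2 in NI and 57.3 and 61.8 in Empty (∆PSI = -33.4, adjusted p = 0.000453, read test with limma), a call that was lost without any 1 library. In the knockdowns the exon stood between shSCR and NI or at the level of shSCR, at 87.8 and 78.9 in shCPSF3#1, 85.2 and 70.2 in shCPSF3#2, 79.7 and 68.6 in shUL1#1 and 80.7 and 73.7 in shUL1#2, and neither knockdown was called. T7-TIA1, at 58.1 and 62.6, overlapped with Empty.

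The 117-base exon of the same gene was at 51.1 and 50.01 in NI and at 26.4 and 28.6 in shSCR (∆PSI = -23.1, adjusted p = 0.021, read test with limma). In Empty it was at 33.0 and 30.8 against 44.1 and 48.0 in NI (∆PSI = -14.1, adjusted p = 0.732, read test with limma), which passed the rule and not the read test. *Lsm14a* moved the other way: a 57-base exon (chr7:34347926-34347982, minus strand), in the untranslated region and partly coding depending on the transcript, went from 60.8 and 61.9 in NI to 78.4 and 79.8 in shSCR (∆PSI = 17.7, adjusted p = 0.0275, read test with limma). Its PSI was 63.8 and 63.4 in the overexpression NI libraries and 75.1 and 72.9 in Empty (∆PSI = 10.4, adjusted p = 0.975, read test with limma).

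The 45-base exon of *U2af2* was the only member event called in either knockdown by the read test. Its PSI was 89.5 and 88.8 in NI, and 98.3 and 97.9 in shSCR, so that skipping was rare in the control at day 12 (∆PSI = 8.90, adjusted p = 0.000473, read test with limma). It was 92.0 and 90.8 in shCPSF3#1 and 93.7 and 93.2 in shCPSF3#2 (∆PSI = -5.66 against shSCR, adjusted p = 0.00378, read test with limma). It was 94.6 and 94.7 in shUL1#1 and 93.2 and 93.9 in shUL1#2 (∆PSI = -4.00, adjusted p = 0.0304, read test with limma). All 8 knockdown libraries lay between NI and shSCR, the 12 libraries of the dataset held 1430 to 3215 reads each, and the comparisons share the shSCR libraries. With the variance trend on the read total, the adjusted p of the 3 comparisons were 0.124, 0.322 and 0.801. In the overexpression dataset the exon was at 88.9 and 91.5 in NI, 96.8 and 94.5 in Empty and 92.0 and 93.4 in T7-TIA1, and neither comparison was called.

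Introns of 3 members passed the rule with a higher PSI in shSCR than in NI. An intron of *Sf3b1* (chr1:55014563-55016375, minus strand) was retained at a PSI of 13.7 and 13.0 in NI and of 37.0 and 26.0 in shSCR (∆PSI = 18.1, adjusted p = 0.00879, read test with limma). It was at 14.3 and 16.8 in the overexpression NI libraries and 24.1 and 18.6 in Empty, which did not pass the rule. An intron of *Snrnp70*, the U1 70K protein gene (chr7:45380819-45383803, minus strand), passed only the rule, with 16.9 and 12.8 in NI and 32.3 and 22.3 in shSCR (∆PSI = 12.4, adjusted p = 0.163, read test with limma) and with 16.2 and 12.6 in NI and 30.6 and 25.7 in Empty (∆PSI = 13.7, adjusted p = 0.262, read test with limma). It was at 43.8 and 42.4 in shCPSF3#1, 38.8 and 31.8 in shCPSF3#2, 43.5 and 31.6 in shUL1#1 and 32.2 and 30.8 in shUL1#2. Against shSCR the shCPSF3 libraries passed neither the rule, as they overlapped, nor the read test (∆PSI = 11.9, adjusted p = 0.462, read test with limma). A *Prpf39* intron (chr12:65043358-65044005, plus strand) went from 29.4 and 31.6 to 45.5 and 54.2 (∆PSI = 19.3, adjusted p = 0.131, read test with limma). In the overexpression dataset it was at 43.4 and 39.1 in NI and 42.4 and 35.3 in Empty (∆PSI = -2.43), which overlapped.

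The read test also called an 80-base and a 60-base exon of *Snrnp70* in shSCR against NI. The former was at 2.50 and 2.11 in NI and 7.29 and 7.72 in shSCR (adjusted p = 0.00923, read test with limma), and the latter had a ∆PSI of 8.16 (adjusted p = 0.0328, read test with limma) and lies within the retained intron, so these events share reads. The remaining event that passed both criteria was a 29-base exon of *Sf3b3* (∆PSI = 11.4, adjusted p = 0.0385, read test with limma), which was named after its values were seen.

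In *Cpsf3* knockdown the rule called 2 of 1721 member events, where 0.428% of all events passed, and the read test 1, where 0.141% passed. In *Hnrnpul1* knockdown the rule called 5 of 1721, where 0.369% passed, and the read test 1, where 0.0569% passed. Both of the former and 3 of the latter were in *Prpf40b*. A 210-base intron of *Prpf40b* (chr15:99314981-99315190, plus strand) was at 26.2 and 30.0 in NI and 14.8 and 13.7 in shSCR. It was at 19.9 and 37.7 in shCPSF3#1 and 26.3 and 25.8 in shCPSF3#2 (∆PSI = 13.2, adjusted p = 0.178, read test with limma), and at 27.0 and 28.5 in shUL1#1 and 25.4 and 24.6 in shUL1#2 (∆PSI = 12.2, adjusted p = 0.363, read test with limma). Every knockdown library retained more of this intron than either shSCR library. An 81-base exon of *Prpf40b* stood at 80.3 and 83.7 in shSCR and between 60.3 and 71.8 in the shUL1 libraries (∆PSI = -16.6, adjusted p = 0.263, read test with limma). In shSCR, *Prpf40b* thus had both its highest level and its lowest retention of that intron in the knockdown dataset.

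**Figure D5:**
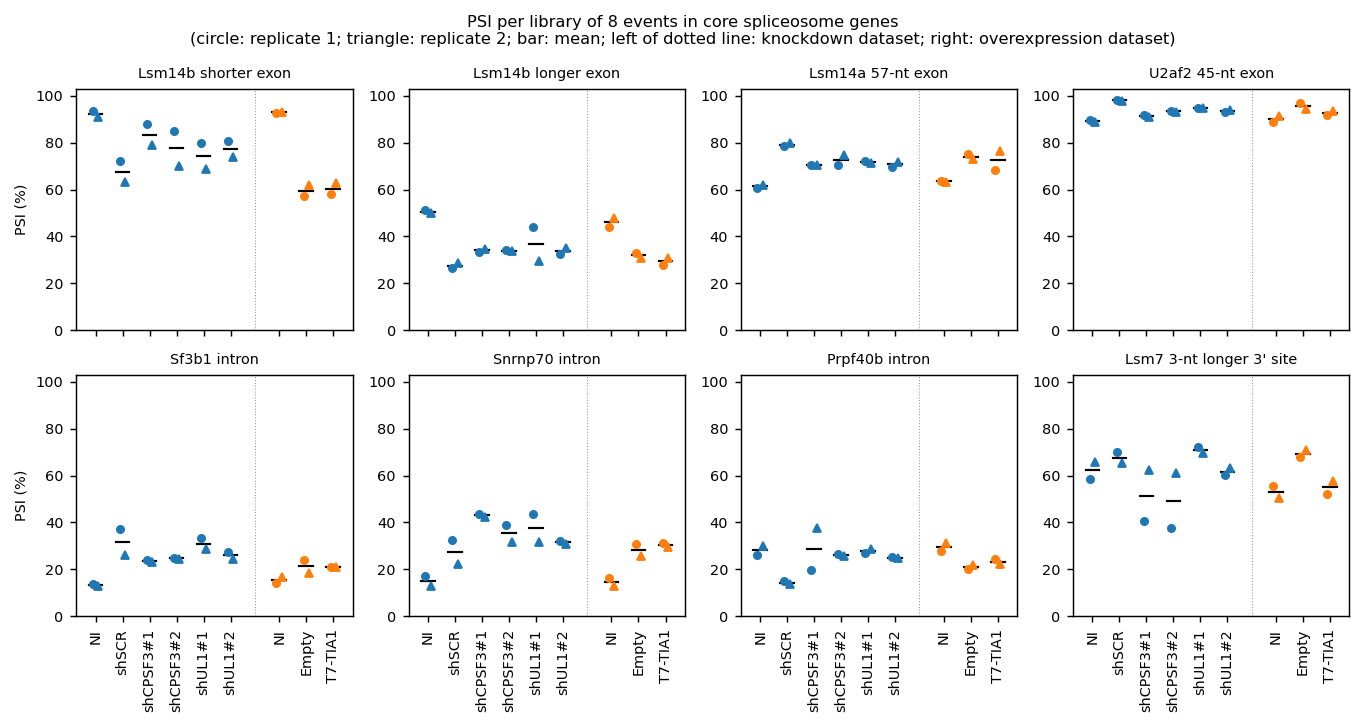
PSI in percent (vertical axis) of selected member events in every library; circles are replicate 1, triangles replicate 2 and bars the mean, with the knockdown dataset left and the overexpression dataset right. The 78-base exon of *Lsm14b* (the shorter exon) fell from 93.4 and 91.0 in NI to 72.2 and 63.2 in shSCR, and the *U2af2* exon was highest in shSCR (98.3 and 97.9).

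Between the knockdowns the rule called 0 of 1717 member events, where 0.0067% of all events passed, and the read test 0, where 0% passed. In Empty against NI the rule called 7 of 1725, where 0.679% passed, and the read test 1, where 0.047% passed. In T7-TIA1 against Empty the rule called 4 of 1740, where 0.342% passed, and the read test 0, where 0.00604% passed. The 4 entries are 2 splice site choices, each entered once per form. At *Lsm7*, a U6 ring gene, the choice adds or leaves out 3 bases at a 3′ splice site (chr10:80854709-80854711, minus strand), shown in capitals between the neighbouring bases.
*Lsm7* alternative 3′ splice site: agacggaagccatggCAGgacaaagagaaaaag
The longer form was used at 55.5 and 50.4 in NI, 67.8 and 70.9 in Empty and 52.1 and 57.8 in T7-TIA1. T7-TIA1 lay below Empty and near NI (∆PSI = -14.3, adjusted p = 1, read test with limma), from 88 to 127 reads per library. In the knockdown dataset, at 46 to 112 reads, the longer form was at 58.6 and 66.0 in NI, 70.0 and 65.1 in shSCR, 40.6 and 62.3 in shCPSF3#1 and 37.5 and 61.0 in shCPSF3#2, and shCPSF3 differed from shSCR by more (∆PSI = -17.2) but with libraries too close together for the rule. It was at 72.2 and 69.4 in shUL1#1 and 60.1 and 63.0 in shUL1#2. The other choice, a 5′ splice site of *Snrpe* that adds 11 bases, rested on few reads and had a ∆PSI of 12.9 in size.

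The promoters of the members were compared with all promoters of the RefSeq table (GRCm38.p6), over 300 bases from 250 before the start. It held 54 promoters of 43 members among 32851. The GC box GGGCGG was present on either strand in 61.1% of members' promoters and 35.7% of all, the ETS core CCGGAA in 40.7% and 14.9%, the E-box CACGTG, bound by MYC among others, in 11.1% and 7.15%, the CCAAT box in 40.7% and 37.4%, the NRF1 motif in 1.85% and 0.971%, and the cyclic AMP element TGACGTCA in 5.56% and 1.79%. The members had passed an expression filter, while the promoters compared with were not limited to expressed genes. Some promoters of the same member overlap, such as those of *Sf3b2*. These shares describe the sequence and were not tested. *Snrnp48*, the member called lower in both knockdowns, is shown from the table with its GC boxes, read on the opposite strand, in capitals.
*Snrnp48* promoter, chr13:38204689-38204938, plus strand: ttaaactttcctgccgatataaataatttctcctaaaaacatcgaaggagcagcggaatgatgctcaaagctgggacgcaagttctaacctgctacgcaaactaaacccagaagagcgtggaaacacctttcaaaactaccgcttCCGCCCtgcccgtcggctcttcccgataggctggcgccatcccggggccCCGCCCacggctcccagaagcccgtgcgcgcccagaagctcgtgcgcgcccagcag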

How the data were processed

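Polyadenylated RNA of 18 libraries was sequenced with a stranded kit. Per the labels, the authors used STAR 2.7.1a on mm10 and edgeR 3.16.5, and deposited CPM that had been scaled by edgeR, a normalized signal and not counts, for genes with at least 5 CPM in enough libraries. In the files each listed gene reached 5 in at least 9 of 12 knockdown or all 6 overexpression libraries, so members below that are absent and read depth is not given. The authors also deposited percent PSI per event from vast-tools with a coverage score (a quality score in words and corrected read numbers). An event was used where each of the compared libraries scored at least VLOW, which is about 10 reads.

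Expression was tested with limma 3.58.1 (R 4.3.3, trend) on log2(scaled CPM + 1) in 1 fit per dataset, with p adjusted over all its genes. Within a dataset NI, shSCR or Empty served as the control and the hairpins of a target were averaged. The read test weighted log2((included + 1)/(skipped + 1)) by its counting variance plus 0.05, with a robust variance trend on the reads of the rarer form and a variance never below the counting variance plus that floor. It replaced a version without this bound, which made too many false calls on simulated data, after calls of 4 versions were known. Tables were made with Python 3.11.15 and pandas 2.3.3.

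Members, lists and tests were chosen with earlier results of these data known. Named genes were, per role, up to 3 called members by smallest adjusted p (else the one with the largest difference), with the largest rise and fall of each comparison with a control or day 0. Further members, such as *Sf3b1*, *U2af1* and those gained or lost with the block, were named after their values were seen. Same-numbered knockdown libraries at day 12 deviated together (r 0.674 to 0.949 over 10 pairs) and not with NI (-0.127 to 0.022 over 5 pairs), and overexpression libraries did so weakly (0.171 to 0.308), so the number was used as a block in a second fit. The labels do not say what it marks. Members not named in the text enter through the counts and medians, and 1 of them, also left out of the plot of all members by library, is not reported here. Alternatives were other pseudocounts, filters, rescalings, blocks, libraries left out and coverage minima. No interval from counting is given for CPM, as the depth is unknown.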

Additional observations from a re-analysis of the deposited data

Results flagged for a closer look

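In 3 genes of the SF3B complex, *Sf3b3*, *Sf3b5* and *Sf3b6*, both shSCR libraries lay below both NI libraries of the knockdown dataset while both Empty libraries lay above both NI libraries of the overexpression dataset, a pattern held by 1.58% of the 9041 genes in both tables. The log2 differences were -0.30 and 0.33 for *Sf3b5*, -0.25 and 0.34 for *Sf3b3*, and -0.36 and 0.14 for *Sf3b6*. *Sf3b5*, for example, stood at 43.4 and 41.4 scaled CPM in NI and 30.0 and 38.8 in shSCR, but at 43.6 and 35.9 in NI and 49.4 and 50.8 in Empty. The other SF3B genes, among the members, did not share it: *Sf3b1* was positive in both (0.29 and 0.32), *Sf3b4* negative in both (-1.07 and -0.13) and *Sf3b2* near 0 in shSCR (0.03 and 0.17). By sign alone, 26 of the 51 members were negative in shSCR and positive in Empty. Replicate 2 was higher for 48 of 52 members in shSCR and for 5 of 53 in the overexpression NI libraries. The difference between the datasets was not tested, since they were filtered and scaled separately. None of the 6 differences of *Sf3b3*, *Sf3b5* and *Sf3b6* passed the test within its dataset. *Sf3b6* in shSCR passed with the replicate number as a block (adjusted p = 0.0287, limma with the block).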

How the results depend on the processing

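The planned edgeR fit on recovered reads was not run, because whole reads could not be recovered from the scaled values. The main limits are 2 libraries per group, a replicate difference at day 12, and a read test whose counts follow its variance model. For members in shSCR against NI, 12 calls became 22 with the replicate block (7 higher and 15 lower, with 59.4% of all genes called). NI did not share the replicate difference, so these block p-values leave part of the spread out. In *Cpsf3* knockdown 7 became 20 with the block (49.8% of all genes called), 0 with only the libraries compared (3.65%), and 17 with both (44.6%). In *Hnrnpul1* knockdown 1 became 0 with equal sums (8.86%), 3 with median ratios (9.77%), 7 with the block (29.3%), 0 with only the libraries compared (1.54%) and 17 with both (48.4%), and between the knockdowns 0 became 1 with both (13.9%). In Empty 8 became 25 with equal sums (49.6%), 3 with only the libraries compared (32.5%) and 3 with both (32.9%). The cause of these shifts was not tested. The replicate block gave 0 member calls in T7-TIA1 and between the knockdowns, as without it. For the other spliceosome and assembly genes, the block with only the libraries compared gave 16 in shSCR; in *Cpsf3* knockdown the block gave 25, only the libraries compared 0 and both 21; in *Hnrnpul1* knockdown equal sums gave 2, the block 10, only the libraries compared 0 and both 27; between the knockdowns both gave 1; in Empty equal sums gave 46, only the libraries compared 17 and both 15.

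For events under the differential splicing rule, a minimum of 15 gave 5 in shSCR, 0 in *Cpsf3* and 1 in *Hnrnpul1* knockdown, 3 in Empty and 0 in T7-TIA1. No minimum range gave 8 in *Cpsf3* knockdown and 2 between the knockdowns, and stricter coverage gave 2 in T7-TIA1. For the read test in shSCR, *Cpsf3* and *Hnrnpul1* knockdown, PSI in percent gave 3, 3 and 3 (1 between the knockdowns), and at least 10 reads of the rarer form gave 22, 4 and 4 (5 in Empty). The variance trend on the read total gave 0, 0 and 0 (0 in Empty), no lower bound on the variance gave 112, 18 and 3 (53 in Empty), and both changes together 48, 6 and 3 (0 in Empty). Among all events, these versions gave 5, 0 and 0 (0 in Empty), 43507, 17495 and 6119 (43163 in Empty), and 17453, 2243 and 533 (2 in Empty). The replicate block gave 2 in *Cpsf3* knockdown and 6 in Empty, and 0.5 reads added gave 2 in Empty. Added alternatives were chosen after seeing the data.

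Leaving out 1 library at a time, member calls ran from 3 to 16 in shSCR, 0 to 7 in *Cpsf3* knockdown, 0 to 2 in *Hnrnpul1* knockdown, 0 to 0 between the knockdowns, 0 to 33 in Empty and 0 to 0 in T7-TIA1. In the same order, the other lists ran from 10 to 28, 1 to 14, 0 to 2, 0 to 0, 6 to 54 and 0 to 0, events by the rule from 11 to 19, 1 to 8, 3 to 10, 0 to 1, 8 to 14 and 6 to 9, and events by reads from 1 to 8, 0 to 1, 0 to 1, 0 to 0, 0 to 0 and 0 to 0. Of the values of named genes under the alternatives, 371 stayed on their side of the threshold with the same direction and 140 no longer passed; of named events, 120 and 54. None turned direction past the threshold.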
